A study of Mus musculus with 28 samples.

Results

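The comparison described here set non-pathogenic T helper 17 cells (Th17n) against induced regulatory T cells (iTreg), both grown under polyamine depletion, in wild-type (WT) mice. It asked which differences between the 2 lineages were still present when ornithine decarboxylase was inhibited by DFMO (difluoromethylornithine). Its members are the libraries whose labels read Th17n, DFMO and WT (4) and those whose labels read iTreg, DFMO and WT (4), 8 of the 28 libraries of the series. WT animals 1, 2, 3 and 4 each gave 1 library of either kind, so every difference was taken within animals. Naive splenic CD4 T cells of C57BL/6 mice were activated on plates with anti-CD3 and anti-CD28 (1 µg/ml each) and harvested after 68 h. Th17n cultures received IL-6 (25 ng/ml) with TGF-beta 1 (2 ng/ml), and iTreg cultures received TGF-beta 1 (2 ng/ml) alone. The Th17n DFMO and iTreg DFMO cultures held 100 µM DFMO, and the Th17n ctrl and iTreg ctrl cultures of the same 4 animals held none. Cells from 3 further animals, labelled KO, came from mice with floxed Jmjd3 (Kdm6b) and CD4cre, which deletes in T cells. They gave the same cultures, and their Th17n DFMO and iTreg DFMO libraries (3 each) are compared with WT near the end. All KO libraries also entered the fit that estimates the spread behind every p-value and SE given here. The labels do not give age, or whether the WT animals carried Cre or floxed alleles. Cultures were sorted for live cells and not by lineage, so in these bulk samples fewer cells of a type and less RNA per cell cannot be told apart.

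TGF-beta alone drives activated CD4 T cells to express Foxp3, the transcription factor of regulatory T cells, while TGF-beta with IL-6 activates STAT3 and the nuclear receptor ROR-alpha (Rora) and yields cells that make IL-17A, IL-17F and IL-21. The 2 fates share their TGF-beta signal and antagonise each other. Polyamines (putrescine, spermidine and spermine) are made from ornithine by the enzyme that DFMO inhibits, and they serve proliferation and translation in activated T cells.

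The 8 libraries held 3233025 to 4496220 estimated counts each, and 10985 genes were tested. The first principal component of the 8 libraries held 57.5% of the variance and separated the lineages. The second held 11.1% and spread the iTreg libraries, with animal 2 at 34.05 and animal 4 at -28.57. Defining genes of the labelled cell type were present: the 10 T cell identity genes in the files summed to 3718 to 4251 CPM (counts scaled to library size, as edgeR gives them) in Th17n cells and 3482 to 4710 CPM in iTreg cells. Neutrophil genes summed to at most 1.39 CPM in any of the 8 libraries, myeloid genes to 2.96 to 4.85 CPM in Th17n cells and 3.91 to 8.61 CPM in iTreg cells, and B cell genes to 18.5 to 27.2 and 13.6 to 21.1 CPM. Lyz2, C1qa, C1qb, C1qc, Tyrobp, S100a8 and S100a9 had 0 counts in all 8 libraries. Genes of the CD8 list, which holds Cd8a, perforin, granzymes and Eomes, summed to 7.0 to 10.1 CPM in Th17n cells and 20.2 to 29.8 CPM in iTreg cells. Natural killer and innate lymphoid genes summed to 2.60 to 5.95 CPM in Th17n cells and 0 to 0.297 CPM in iTreg cells, and mast cell and basophil genes to 0 to 0.661 CPM and 1.81 to 6.53 CPM. The part of these markers in the results was not tested.

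Under DFMO, 1561 genes (14.2% of those tested) were higher and 1946 (17.7%) lower in Th17n than in iTreg cells at an edgeR adjusted p under 0.05, 31.9% in all. The balance of directions depended on the fit. Limma tests on TPM (the deposited length-scaled abundances) called 1915 to 2245 higher and 709 to 771 lower. On counts 44.5% of the calls were higher with all libraries, and 42.4% to 53.6% when 1 library or animal was left out. The cause of these shifts was not tested. The median log2 fold change over all genes was -0.02. At least 2-fold differences were called for 620 genes higher in Th17n cells (5.64%) and 434 lower (3.95%). In 1269 genes (11.6%) all 4 Th17n libraries lay above all 4 iTreg libraries, and in 1532 (13.9%) all lay below. Without DFMO the same animals gave 2339 higher (21.3%) and 2367 lower (21.5%) genes, with 828 (7.54%) and 503 (4.58%) at least 2-fold. Precision was alike, with a median standard error (SE) of the log2 fold change of 0.156 under DFMO and 0.150 without it.

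Most large lineage differences of untreated cells were called again in the DFMO libraries. Of the 828 genes at least 2-fold higher in untreated Th17n cells, 586 (70.8%) were called higher under DFMO, 5 were called lower and 237 were not called. Of the 503 genes at least 2-fold lower, 347 (69%) were called lower under DFMO, 1 was called higher and 155 were not called. In 171 of the 237 and 111 of the 155 the test of a change with DFMO (given below as the interaction) was not called either, so no change of these differences was shown. The share grew with the size of the difference. Among genes higher in untreated Th17n cells the share called again was 67.7% for 2- to 4-fold differences (335 of 495), 73.6% for 4- to 8-fold (131 of 178) and 77.4% above 8-fold (120 of 155). Among genes lower in untreated Th17n cells the shares were 62.8% (196 of 312), 69.1% (65 of 94) and 88.7% (86 of 97). The 828 genes had a median log2 fold change of 1.23 under DFMO and 1.71 without it, and the 503 genes -1.28 and -1.63. Genes picked for a large value in one setting tend to be smaller in any other. Read the other way, the 620 genes at least 2-fold higher under DFMO had a median of 1.84 there and 1.63 without DFMO, with 491 (79.2%) called in both, and the 434 lower genes had -1.87 and -1.42, with 343 (79%) called in both. Whether a difference itself changed was tested as the interaction of DFMO with lineage (the log2 fold change under DFMO minus that without it). It was called for 528 genes with a positive value (4.81%) and 826 with a negative one (7.52%). Here too the balance turned on TPM values, with 812 to 1011 positive and 198 to 285 negative calls. It was not stable on counts either. Positive values made up 39.0% of the calls with all libraries, and 35.6% to 54.7% when 1 library or animal was left out. Negative calls then numbered 394 to 733, always below the 826. The counts of interactions by direction that follow are those of the count fit unless TPM is named. Among the 828 genes it was called toward a smaller difference in 205 and toward a larger one in 25. Among the 503 genes these counts were 94 and 13. The reverse selection gave the opposite balance, with 48 smaller and 75 larger among the 620 genes, and 19 and 71 among the 434. Each set was picked on a value that enters the interaction, so these counts do not show which way most differences moved.

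**Figure D1:**
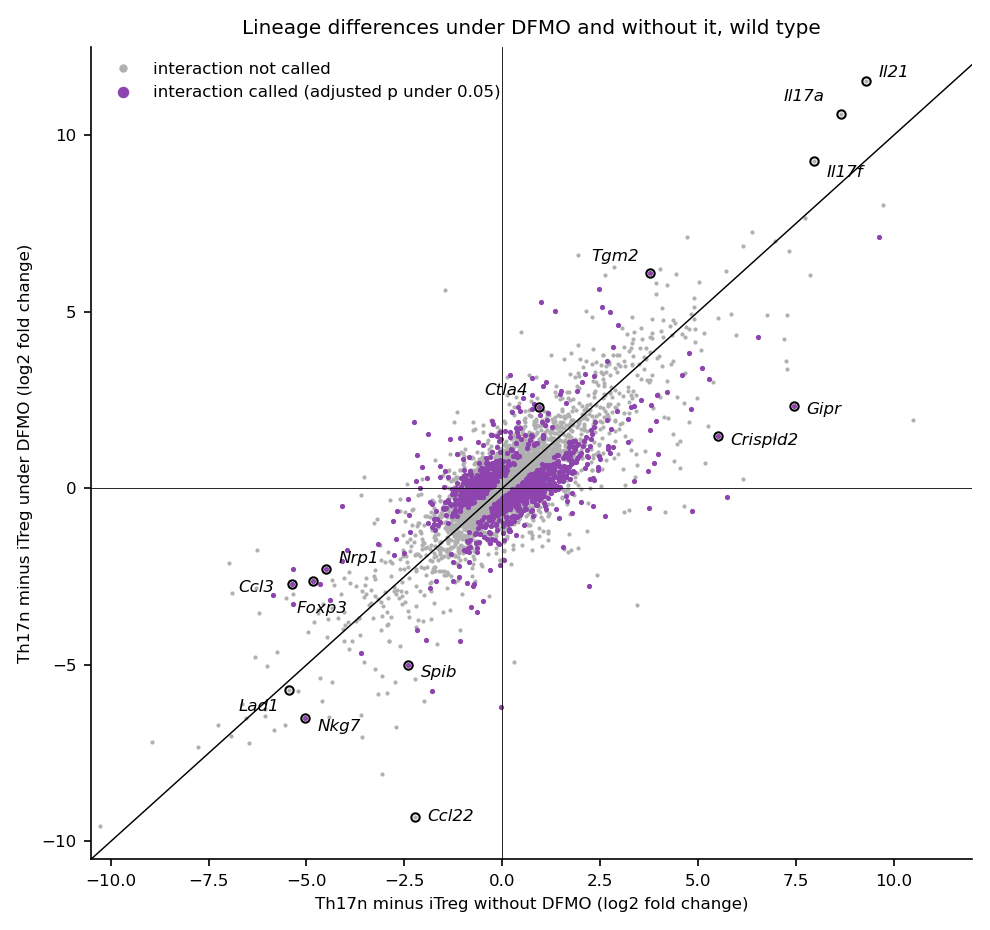
Log2 fold change of Th17n minus iTreg cells under DFMO (vertical axis) against that without DFMO (horizontal axis) for the 10985 tested genes; purple points are the 1354 genes whose interaction was called, and the line marks equal differences. Il17a, Il17f and Il21 sit at the upper right in both settings, Foxp3 and Nrp1 lie closer to 0 under DFMO, and Ccl22 and Ctla4 lie farther from it.

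The cytokine genes that define Th17 cells stayed far apart. Among genes with a mean of at least 10 CPM, Il21, Il17a and Il17f had the 3 largest called edgeR fold changes in favour of Th17n cells under DFMO. They encode secreted cytokines of the Th17 response. Il21 and Il17a held 1 and 0 iTreg counts, so their rank among genes near 0 in iTreg cells is uncertain. Their proximal promoters are given because these genes were at or near 0 in iTreg cells and abundant in Th17n cells with DFMO, while Foxp3 ran the other way. Each sequence is the 250 bases before the transcription start in RefSeq's GRCm38.p6 entry, read along the gene's strand. Capitals mark matches on either strand to AGGTCA (a nuclear receptor half-site), TTCNNNGAA (STAT), TGA and TCA with any base between them (AP-1) and TATAAA (the core promoter element of that name), none of which overlapped here.
Il21: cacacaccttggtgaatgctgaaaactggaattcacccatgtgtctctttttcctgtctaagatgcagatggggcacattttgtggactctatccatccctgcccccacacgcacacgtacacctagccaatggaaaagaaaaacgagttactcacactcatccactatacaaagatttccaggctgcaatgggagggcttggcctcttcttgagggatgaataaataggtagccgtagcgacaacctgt
Il17a: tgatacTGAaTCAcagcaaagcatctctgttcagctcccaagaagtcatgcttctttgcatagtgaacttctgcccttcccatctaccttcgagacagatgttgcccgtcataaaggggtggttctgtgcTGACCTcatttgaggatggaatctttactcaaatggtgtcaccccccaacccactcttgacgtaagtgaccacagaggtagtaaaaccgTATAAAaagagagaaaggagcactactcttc
Il17f: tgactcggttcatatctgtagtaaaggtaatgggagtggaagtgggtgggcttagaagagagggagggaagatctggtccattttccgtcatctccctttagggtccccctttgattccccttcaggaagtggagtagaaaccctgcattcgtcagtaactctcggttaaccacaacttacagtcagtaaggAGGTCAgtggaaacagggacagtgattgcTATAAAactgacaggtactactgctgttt
Foxp3: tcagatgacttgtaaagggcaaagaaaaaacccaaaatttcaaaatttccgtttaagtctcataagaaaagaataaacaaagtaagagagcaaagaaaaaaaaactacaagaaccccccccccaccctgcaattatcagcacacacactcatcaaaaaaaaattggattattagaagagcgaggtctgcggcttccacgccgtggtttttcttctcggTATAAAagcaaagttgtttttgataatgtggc
The windows are chr3:37232637-37232886 (minus strand), chr1:20730655-20730904 (plus), chr1:20784271-20784520 (minus) and chrX:7579426-7579675 (plus). Bases just after the start occurred in 1 of 3 annotated transcripts of Il21, 1 of 1 of Il17a, 2 of 4 of Il17f and 6 of 10 of Foxp3. Whether those transcripts begin at that start was not tested. The Il17f window lies inside the interval of the gene given below, so that gene has other starts upstream. Il17a and Il17f each held 1 AGGTCA half-site, starting 120 and 58 bases before the start, and a TATA box 31 and 29 bases before it. Il17a also held an AP-1 match 244 bases before the start. The Foxp3 window printed held only the TATA box, 32 bases before the start, and the Il21 window held no match to the 4 motifs. RefSeq also lists a downstream Foxp3 start, and bases just after it occurred in 1 of the 10 transcripts. Its window (chrX:7580233-7580482, not printed) held 2 AGGTCA half-sites, 91 and 70 bases before that start, and a STAT match 139 bases before it. Of 32851 promoter entries searched in the same window, 14% held AGGTCA, 7.02% the STAT motif, 6.75% the AP-1 motif and 12.4% the TATA box. These matches describe letters and not bound sites.

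Il21 (chr3:37222759-37232636, GRCm38, as for all positions here) stood in animals 1 to 4 at 340.3, 353, 305 and 266 CPM in Th17n cells, against 0.256, 0, 0 and 0 CPM in iTreg cells. All iTreg libraries together held 1 count, and the ratio of the summed scaled counts was 4290 (95% interval 769 to 169000), an interval that covers counting error only. Without DFMO its values were 287, 251, 256 and 233 CPM in Th17n cells, against 0, 0, 0.526 and 1.39 CPM in iTreg cells, and in each animal the Th17n library lay higher with DFMO than without it. Il17a (chr1:20730905-20734496) stood at 36.8, 27.5, 45.2 and 112 CPM in Th17n cells, against 0, 0, 0 and 0 CPM in iTreg cells. With 0 counts in 4 iTreg libraries, the difference was at least 242-fold against a floor of 3 counts over the group (edgeR adjusted p = 2.82e-10). In the untreated Th17n libraries of the same animals Il17a stood at 58.2, 169, 128 and 251 CPM, above the DFMO library of the same animal each time. Il17f (chr1:20777146-20790617) stood at 259, 642, 372 and 733 CPM in Th17n cells, against 0, 0.297, 1.20 and 1.74 CPM in iTreg cells. Its log2 fold change was 9.28 ± 0.34 (± SE throughout; edgeR adjusted p = 1.07e-17), and the groups were far apart in every animal. Il22, a cytokine of mucosal defence, was called as well (7.67 ± 1.04). Il23r, the receptor that sustains Th17 cells through IL-23, stood at 3.18, 5.07, 4.94 and 3.77 CPM in Th17n cells, against 0, 0, 0 and 0 CPM in iTreg cells. That is at least 19.2-fold higher by the same floor. Summed over the libraries of a group, Il23r held 68 Th17n counts under DFMO and 225 without it. The ratio without DFMO was 194 (95% interval 34.5 to 7700). The interaction was not called for Il21, Il17a, Il17f, Il22 or Il23r (edgeR adjusted p of 0.249, 0.602, 0.303, 1 and 0.734). Il21, Il17a and Il23r held 0 or 1 iTreg counts under DFMO, so the test had little power for them. The uncalled interactions of all these genes, Il17f and Il22 among them, do not show that the differences were unchanged.

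The Th17 programme list holds 25 genes, of which 24 passed the filter on low counts. Under DFMO 20 of the 24 were higher in Th17n cells and 0 lower, with a median log2 fold change of 3.24, and without DFMO 22 were higher and 0 lower, with a median of 2.57. Placing the genes with 0 iTreg counts at their lower bound leaves the first median as it is. All 20 were also called without DFMO. The shares over all tested genes were 14.2% higher and 17.7% lower under DFMO, and 21.3% and 21.5% without it. The order of the 2 medians depended on the measure. On TPM the list's median relative to the median of all genes was 1.84 under DFMO and 2.05 without it. In single animals the median difference in log2 CPM ran from 2.41 to 2.62 under DFMO and from 2.04 to 2.76 without it. The median interaction on counts was -0.035, with 0 members called upward, so a growth of the difference was not shown. Rora, which encodes ROR-alpha, stood at 83.2, 108, 92.1 and 124 CPM in Th17n cells, against 14.8, 37.1, 13.2 and 33.7 CPM in iTreg cells. The groups did not overlap (2.10 ± 0.16, edgeR adjusted p = 2.45e-11), and iTreg cells of animals 2 and 4 lay above those of animals 1 and 3. Among other regulators, the AP-1 family member Maf (4.33 ± 0.25), the aryl hydrocarbon receptor Ahr (3.40 ± 0.34), Sox5 (7.27 ± 0.85), the hypoxia factor Hif1a (1.41 ± 0.11) and Batf (1.21 ± 0.09) were all higher in Th17n cells. The chemokine gene Ccl20 was higher by 3.26 ± 0.27, and its receptor gene Ccr6 was not called (0.12 ± 0.18). Runx1 (0.14 ± 0.12), Nfkbiz (0.05 ± 0.13) and the IL-6 receptor gene Il6ra (0.43 ± 0.18) were not called either. In 3 list members the interaction test gave a smaller difference under DFMO than without it: Stat3 (-0.86 ± 0.10), Irf4 (-0.75 ± 0.14) and Il6ra (-0.84 ± 0.24). The 7 genes of the non-pathogenic Th17 list, which include Maf, Ahr and the lipid regulator Cd5l, were all higher in Th17n cells under DFMO, with a median of 3.39.

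**Figure D2:**
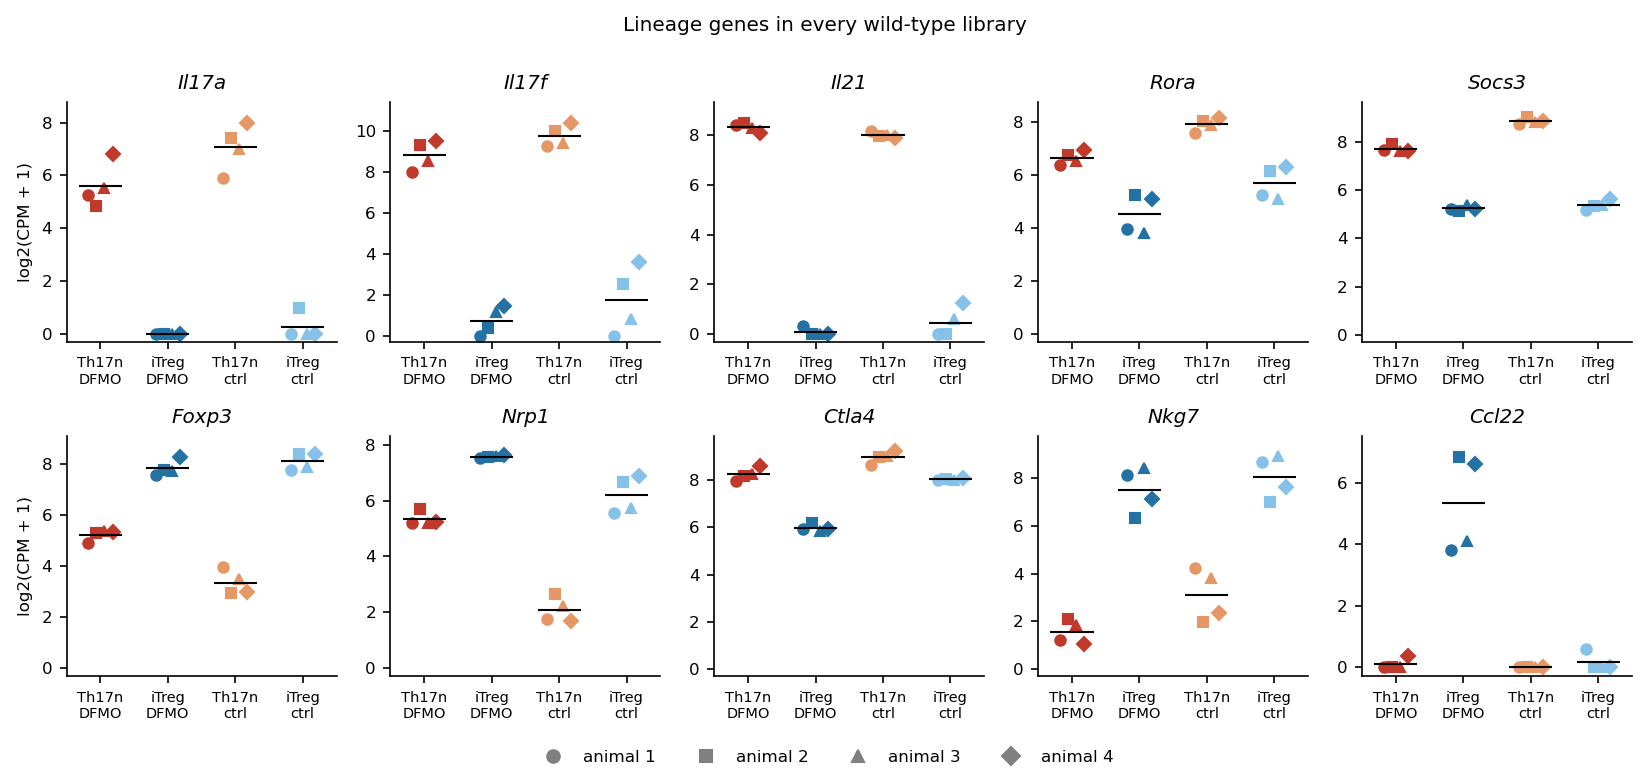
Log2(CPM + 1) of 10 genes in all 16 WT libraries, with animals as symbols and the group mean of log2(CPM + 1) as a line; Th17n DFMO, iTreg DFMO, Th17n ctrl and iTreg ctrl run from left to right. Il17a, Il17f, Il21, Rora and Socs3 are higher in the Th17n libraries of either setting, Foxp3 in Th17n cells lies higher under DFMO than without it, and Ccl22 is seen only in iTreg DFMO libraries beyond 1 CPM.

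The other 7 of the 10 largest Th17n excesses under DFMO were those of Timp1, Tgm2, Ltb4r1, Lbp, Serpinf1, Itga3 and Pdpn. Timp1, an inhibitor of matrix metalloproteinases, stood at 376, 400.1, 446 and 436 CPM in Th17n cells, against 6.65, 0.594, 1.20 and 2.78 CPM in iTreg cells (7.11 ± 0.25, edgeR adjusted p = 5.54e-18). Tgm2, a transglutaminase that crosslinks proteins and can use polyamines as substrates, stood at 474, 699, 462 and 536 CPM in Th17n cells, against 4.35, 5.94, 14.1 and 7.30 CPM in iTreg cells. Its difference of 6.09 ± 0.21 was larger than the 3.77 ± 0.16 seen without DFMO (interaction 2.32 ± 0.27, adjusted p = 1.9e-06). In iTreg cells it lay at 91.3, 87, 62.1 and 129 CPM without DFMO, so the 2 settings did not overlap there. Ltb4r1, a receptor for leukotriene B4, stood at 26.8, 34.8, 22.9 and 28 CPM in Th17n cells, against 0, 0.297, 0 and 0 CPM in iTreg cells, a ratio of 383 (95% interval 68.4 to 15200) with 1 iTreg count in all. Without DFMO the ratio was 1280 (95% interval 230 to 50700), with 1485 Th17n counts against 451 under DFMO. Lbp, the lipopolysaccharide-binding protein gene, stood at 24.1, 79.1, 45 and 47.4 CPM in Th17n cells, against 0.511, 0.594, 0 and 0.348 CPM in iTreg cells (6.87 ± 0.42). Serpinf1 (6.72 ± 0.25), the integrin gene Itga3 (5.12 ± 0.36) and podoplanin, Pdpn (4.78 ± 0.33), complete the 10 largest. For each of the 10 the groups did not overlap and all 4 animals had the same direction.

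Several of the 10 largest iTreg excesses under DFMO split the animals. Lad1, which encodes the anchoring filament protein ladinin, stood at 8.75, 5.07, 7.80 and 3.77 CPM in Th17n cells, against 298, 336, 368 and 335 CPM in iTreg cells (-5.72 ± 0.17, edgeR adjusted p = 1.91e-19). The iTreg libraries were close together for it, as they were for Dnah7a, a dynein heavy chain gene (1.59, 1.32, 2.08 and 0 CPM in Th17n cells, against 77, 96.8, 70.7 and 118 CPM in iTreg cells; -6.12 ± 0.32), and for Mndal, an interferon-inducible gene of the Ifi200 cluster (0.265, 0.220, 0.260 and 0.269 CPM in Th17n cells, against 28.4, 43, 22 and 24.3 CPM in iTreg cells; -6.71 ± 0.39). Mndal has close paralogs, so its share of reads is uncertain. Car2, carbonic anhydrase 2, instead stood at 0.530, 0.220, 0.260 and 0.269 CPM in Th17n cells, against 81, 12.2, 83.9 and 18.4 CPM in iTreg cells, where iTreg cells of animals 1 and 3 lay far above those of animals 2 and 4. The same order held for Lcn10, a lipocalin gene (0, 0, 0 and 0 CPM in Th17n cells, against 41.9, 7.13, 58.6 and 4.52 CPM in iTreg cells), for Nkg7, a cytotoxic granule gene (1.32, 3.30, 2.60 and 1.08 CPM in Th17n cells, against 279.7, 79, 339.6 and 140.1 CPM in iTreg cells), and for Fbln2, fibulin 2 (4.77, 1.54, 3.90 and 1.35 CPM in Th17n cells, against 108, 51.4, 152 and 71.6 CPM in iTreg cells). Ccl22, a chemokine that attracts CCR4-bearing cells, ran the opposite way among animals, at 0, 0, 0 and 0.269 CPM in Th17n cells, against 13, 114, 16.2 and 97.7 CPM in iTreg cells. It held 1 count in all Th17n libraries, and the iTreg excess as a ratio was 908 (95% interval 162 to 35900). Without DFMO Ccl22 was near 0 in both lineages (0, 0, 0 and 0 CPM in Th17n cells, against 0.484, 0, 0 and 0 CPM in iTreg cells). With so few untreated counts the interaction had no usable estimate (adjusted p = 0.984). Spib, an ETS transcription factor gene, stood at 1.06, 1.54, 1.04 and 0.269 CPM in Th17n cells, against 21.2, 45.4, 24.1 and 41.4 CPM in iTreg cells, and had a larger difference under DFMO (interaction -2.59 ± 0.72, adjusted p = 0.0166), a call lost in 7 alternative fits, those without the replicate block or without animal 1, 3 or 4 among them. Ifng, the gene of interferon-gamma, stood at 3.18, 0, 0.260 and 0 CPM in Th17n cells, against 61.9, 0.891, 76.4 and 12.2 CPM in iTreg cells. Here the groups overlapped across animals, although each animal's iTreg library was above its Th17n library (-5.47 ± 0.57, adjusted p = 1.35e-07).

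Foxp3 remained lower in Th17n cells, but by less than without the drug. It stood at 28.9, 38.8, 40.8 and 39.8 CPM in Th17n cells, against 189.7, 219, 213 and 309 CPM in iTreg cells, with no overlap (-2.63 ± 0.16, edgeR adjusted p = 4.86e-13). Without DFMO the values were 14.7, 6.77, 10.2 and 6.92 CPM in Th17n cells, against 216, 339, 236 and 335 CPM in iTreg cells (-4.83 ± 0.19). The interaction was 2.20 ± 0.26 (edgeR adjusted p = 2.04e-06). Each Th17n DFMO library lay above every untreated Th17n library. In every animal the iTreg DFMO library lay below the untreated iTreg library, although the iTreg ranges of the 2 settings overlapped. Nrp1, neuropilin 1, found on regulatory T cells, likewise had a smaller iTreg excess under DFMO. It stood at 35.8, 50.4, 35.6 and 36.9 CPM in Th17n cells, against 182, 191, 193 and 198 CPM in iTreg cells under DFMO. Without DFMO it stood at 2.38, 5.19, 3.62 and 2.16 CPM in Th17n cells, against 46, 101, 52.9 and 117 CPM in iTreg cells (interaction 2.22 ± 0.31, adjusted p = 2.53e-05). For Nrp1 both lineages lay higher under DFMO. Penk, proenkephalin, averaged 5.63 ± 3.25 CPM in Th17n cells and 54.6 ± 24.3 CPM in iTreg cells under DFMO (SD, n = 4 each), with an interaction of 2.08 ± 0.62 (adjusted p = 0.0251).

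Other genes of regulatory T cells went different ways, and the list did not move as a unit. Of its 27 genes 25 were in the files and 23 were tested. Under DFMO 6 were higher and 11 lower in Th17n cells (median -0.25), and without DFMO 10 and 8 (median 0.25), of which 11 were called the same way in both. The interaction was called upward in 8 and downward in 7, against 4.81% and 7.52% of all tested genes. For the lineage difference those shares were 14.2% higher and 17.7% lower under DFMO, and 21.3% and 21.5% without it. Ctla4, an inhibitory receptor that regulatory T cells use, was higher in Th17n cultures, at 251, 288, 304 and 389 CPM in Th17n cells, against 59.6, 72.8, 55.9 and 59.4 CPM in iTreg cells. Its difference of 2.30 ± 0.10 exceeded that without DFMO (0.93 ± 0.09; interaction adjusted p = 1.28e-07), with iTreg libraries at 253, 268, 259 and 274 CPM when untreated. Ikzf2, the Helios gene, stood at 10.6, 12.6, 16.4 and 11.6 CPM in Th17n cells, against 48.8, 43.9, 54.7 and 40.7 CPM in iTreg cells (-1.88 ± 0.19). Differences that were absent from the untreated calls were those of Lrrc32, the GARP gene that docks latent TGF-beta (-1.44 ± 0.22 under DFMO, -0.25 ± 0.17 without), and Swap70, a guanine nucleotide exchange factor gene (-1.45 ± 0.14 and 0.06 ± 0.13). Tnfrsf18 (GITR; -0.30 ± 0.08 and 0.35 ± 0.08) and Ikzf4 (-0.38 ± 0.09 and 0.32 ± 0.09) were called in opposite directions in the 2 settings, lower in Th17n cells under DFMO and higher without it. The reverse held for Nt5e, the CD73 gene (0.53 ± 0.17 and -0.56 ± 0.15). Il10 stayed higher in Th17n cells (3.39 ± 0.52). On TPM values the downward interaction calls of this list numbered 2 to 4.

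**Figure D3:**
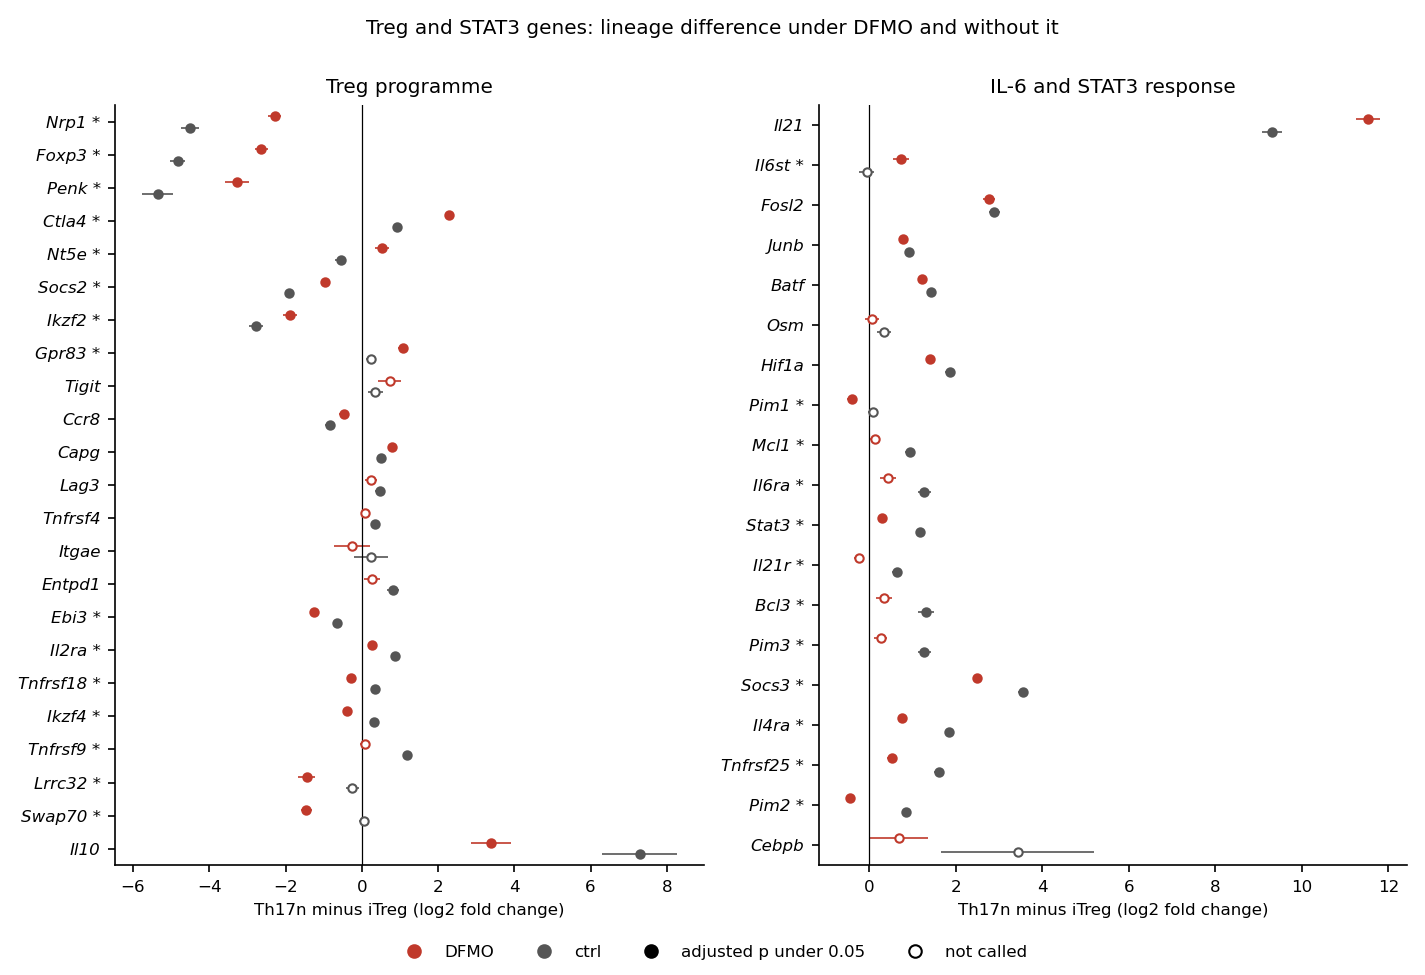
Fitted log2 fold change of Th17n minus iTreg cells (± SE) for the 23 tested genes of the Treg list and 19 of the 20 of the IL-6 and STAT3 list, under DFMO (red) and without it (grey); filled points passed an adjusted p of 0.05, asterisks mark a called interaction, and genes are ordered by it. Foxp3, Nrp1 and Penk are lower in Th17n cells in both settings but less so under DFMO, and most STAT3 genes lie nearer to 0 under DFMO.

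Differences in genes of the IL-6 response narrowed. The list of 20 tested IL-6 and STAT3 genes had 10 higher and 3 lower in Th17n cells under DFMO (median 0.47), against 15 and 1 without it (median 1.27). The interaction was called downward in 11 of the 20 and upward in 1, against 7.52% and 4.81% of all tested genes. Lineage calls took in 14.2% of all tested genes as higher and 17.7% as lower under DFMO, and 21.3% and 21.5% without it. Socs3, the feedback inhibitor induced by STAT3, stood at 204, 241, 197 and 198 CPM in Th17n cells, against 36.6, 34.1, 41.5 and 36.1 CPM in iTreg cells, with no overlap (2.49 ± 0.10). Untreated Th17n cells held 434, 524, 456 and 479 CPM, and the interaction was -1.05 ± 0.14 (adjusted p = 1.27e-05). Stat3 itself stood at 479, 465, 439 and 446 CPM in Th17n cells, against 386, 369, 354 and 378 CPM in iTreg cells, a difference of 0.30 ± 0.07 under DFMO and 1.16 ± 0.07 without it. The kinase gene Pim2 was called lower in Th17n cells with DFMO (-0.46 ± 0.10) and higher without it (0.86 ± 0.09), and Pim3 (0.26 ± 0.15), Bcl3 (0.33 ± 0.18) and the survival gene Mcl1 (0.12 ± 0.12) were called without DFMO and not with it. Il4ra kept a difference of 0.75 ± 0.09, where untreated cells had 1.84 ± 0.09. Il6st, which encodes the signalling chain gp130, was the exception, higher in Th17n cells only in the DFMO calls (0.72 ± 0.18 with and -0.06 ± 0.17 without; interaction 0.79 ± 0.25), and that interaction was lost on TPM values and without the replicate block. Fosl2 (2.77 ± 0.14), Junb (0.77 ± 0.08), Hif1a and Batf had no called interaction. Of 18 genes of the IL-2 and STAT5 response, 6 were higher and 5 lower under DFMO and 10 and 3 without it. The interaction was called downward in 8 and upward in 2, against 7.52% and 4.81% of all tested genes. Stat5a (-1.18 ± 0.13) and Stat5b (-0.77 ± 0.14) were among the 8. On TPM values the downward counts were 7 to 8 for the IL-6 list and 4 to 5 for the IL-2 list, of which 3 genes were then lower under DFMO.

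TGF-beta response genes, of a signal that both cultures received, were higher in Th17n cells for 8 of 18 tested and lower for 0 (median 0.32), against 10 and 1 without DFMO. Of all tested genes 14.2% were higher and 17.7% lower under DFMO, and 21.3% and 21.5% without it. The 8 included Smad3, the receptor-activated transcription factor (1.96 ± 0.13), the inhibitor-of-DNA-binding genes Id2 (2.57 ± 0.16) and Id1 (1.48 ± 0.24) and the ligand gene Tgfb3, at least 21.2-fold higher against 0 iTreg counts. The inhibitory Smad7 was not called (0.48 ± 0.20), and neither was Pmepa1 (0.31 ± 0.18). The interaction was called upward for 2 of the 18 and downward for 1, against 4.81% and 7.52% of all tested genes. These are too few calls to read as a result about the list.

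Genes of type 1 helper and cytotoxic cells sat mostly on the iTreg side in both settings. The shares over all tested genes under DFMO were 17.7% lower and 14.2% higher in Th17n cells. Of 16 tested Th1 genes 10 were lower in Th17n cells under DFMO and 3 higher (median -1.42), and 10 and 4 without it (median -0.91). Tbx21, the T-bet gene that directs the Th1 fate, stood at 61, 11.9, 55.9 and 6.73 CPM in Th17n cells, against 139, 83.1, 162 and 119 CPM in iTreg cells (-2.15 ± 0.29). Groups did not overlap for it, but Th17n cells of animals 1 and 3 lay above those of animals 2 and 4. Gzmb, granzyme B (-3.49 ± 0.41), Fasl (-2.77 ± 0.54) and the IL-18 receptor genes Il18r1 (-1.86 ± 0.27) and Il18rap (-1.66 ± 0.32) were lower, while the IL-12 receptor genes Il12rb1 (0.65 ± 0.10) and Il12rb2 (1.24 ± 0.15) were higher. Eomes, a T-box gene of cytotoxic cells, held 1 count in all Th17n libraries, and its iTreg excess was a ratio of 135 (95% interval 23.8 to 5390). Cxcr3, a Th1 chemokine receptor gene, was lower in Th17n cells with DFMO (-1.16 ± 0.29) and not called without it (0.18 ± 0.28; interaction adjusted p = 0.0278). Gata3, the Th2 regulator also used by regulatory T cells, stood far lower in Th17n cells in both settings (-3.86 ± 0.17 and -4.01 ± 0.16). Of 22 interferon-stimulated genes tested 9 were lower and 1 higher under DFMO, among them Irf7 (-2.91 ± 0.85), Ifih1 (-2.33 ± 0.33) and Gbp3 (-1.35 ± 0.26). On TPM values 4 to 6 were lower and 0 to 3 higher. Animals differed for this list: the median Th17n minus iTreg difference in log2 CPM over its members was -0.55 in animal 1, -0.89 in animal 2, -0.18 in animal 3 and -0.97 in animal 4.

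The lineage difference of mitotic genes dropped out of the calls under DFMO. Under DFMO 0 of 25 G2 and M phase genes were lower in Th17n cells and 2 higher, with a median of 0.04. Without DFMO 22 were lower and 0 higher, with a median of -0.45. The interaction was called upward in 18 of the 25, against 4.81% of all tested genes, and downward in 0. The lineage shares over all tested genes were 14.2% higher and 17.7% lower under DFMO, and 21.3% and 21.5% without it. Mki67, which encodes the proliferation antigen Ki-67, averaged 154 ± 19.6 CPM in Th17n cells and 146 ± 20.4 CPM in iTreg cells under DFMO (SD, n = 4 each), a difference of 0.08 ± 0.09 that was not called. Without DFMO it averaged 114 ± 32.8 CPM in Th17n cells and 157 ± 28.4 CPM in iTreg cells (-0.47 ± 0.09; interaction 0.55 ± 0.13, adjusted p = 0.00411). Ccnb1, the mitotic cyclin B1 gene, stood at 333, 272, 305 and 319 CPM in Th17n cells, against 241, 223, 290.2 and 300.0 CPM in iTreg cells, where the groups overlapped, and its interaction was 0.68 ± 0.13 (adjusted p = 0.000695). Hmmr, a spindle-associated gene, and Bub1, a spindle checkpoint kinase gene, were the 2 called higher (0.28 ± 0.10 and 0.33 ± 0.12). Neither call held without the iTreg DFMO library of animal 1 or that of animal 3, and 6 to 9 members were called higher on TPM values. In single animals the median difference of the 25 genes under DFMO was 0.13, 0.21, 0.03 and -0.09 for animals 1 to 4, and without DFMO it was -0.34, -0.27, -0.65 and -0.54, so the 2 settings did not overlap. Leaving out 1 library or animal moved the count of upward interactions between 11 (without the iTreg DFMO library of animal 1) and 22.

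DNA replication genes kept part of their difference. Of 34 tested 21 were lower and 1 higher in Th17n cells under DFMO (median -0.30), against 31 and 1 without it (median -0.74). The interaction was called upward in 18 and downward in 0, against 4.81% and 7.52% of all tested genes. For the lineage difference 17.7% of all tested genes were lower and 14.2% higher under DFMO, and 21.5% and 21.3% without it. Rrm2, the ribonucleotide reductase subunit gene, went uncalled under DFMO (-0.10 ± 0.08; -0.87 ± 0.08 without), as did the licensing gene Cdc6 (-0.16 ± 0.11; -0.97 ± 0.12 without). Rpa2 (-0.71 ± 0.09), Fen1 (-0.56 ± 0.08), the sliding clamp gene Pcna (-0.37 ± 0.07) and the helicase gene Mcm2 (-0.42 ± 0.09) stayed lower. Orc1 was the member called higher (0.49 ± 0.13). The upward interactions numbered 8 without animal 3, and the calls of lower genes numbered 12 without animal 4. On TPM values only 2 to 4 of these genes were called lower under DFMO. The median of all genes lay at 0.15 to 0.18 there with the filter on low values, and at -0.02 on counts. Relative to the median of all genes the list's median was -0.28 on counts and -0.22 on TPM. For the G2 and M phase list the same relative values were 0.06 and 0.08.

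**Figure D4:**
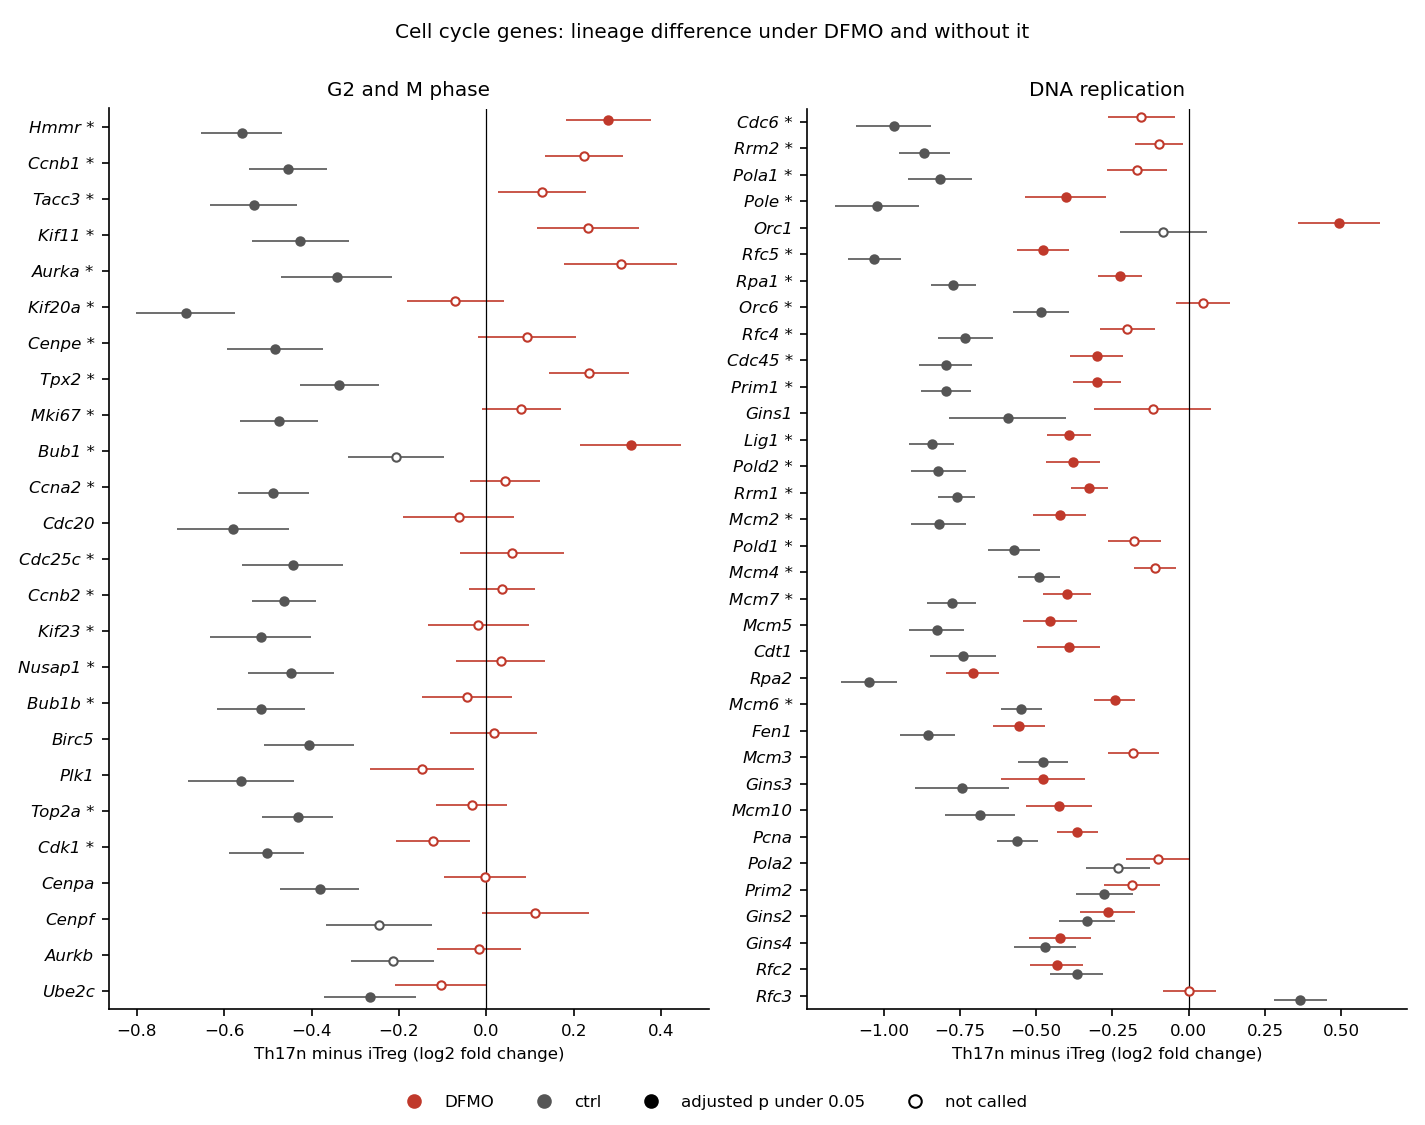
Fitted log2 fold change of Th17n minus iTreg cells (± SE) for 25 G2 and M phase genes and 34 DNA replication genes under DFMO (red) and without it (grey); filled points passed an adjusted p of 0.05, asterisks mark a called interaction, and genes are ordered by it. The red points of the mitotic genes straddle 0 while the grey ones lie between -0.69 and -0.21, and the red points of most replication genes lie below 0 but nearer to it than the grey ones.

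Among metabolic genes, the glycolytic excess of Th17n cells was retained. Under DFMO 14.2% of all tested genes were higher and 17.7% lower in Th17n cells. Of 22 glycolysis genes 18 were higher and 0 lower under DFMO (median 0.49), and 19 and 0 without it (median 0.54). They included the glucose transporter genes Slc2a1 (0.98 ± 0.09) and Slc2a3 (1.33 ± 0.21), Aldoc (1.80 ± 0.20) and the lactate exporter gene Slc16a3 (1.52 ± 0.09). Hexokinase 2, Hk2, and Gapdh had smaller differences under DFMO (-0.63 ± 0.14 and -0.61 ± 0.10), and Aldoc and Slc16a3 larger ones (0.70 ± 0.23 and 0.48 ± 0.13). Nuclear genes of oxidative phosphorylation were lower in Th17n cells for 23 of 38 and higher for 0 (median -0.31), against 19 and 0 without DFMO (median -0.19), with small differences such as Ndufa4 (-0.71 ± 0.08) and Atp5a1 (-0.46 ± 0.07). This count was 5 on TPM values and 14 without animal 4, while the list's median relative to all genes was -0.29 on counts and -0.23 on TPM. Serine and one-carbon genes were lower for 16 of 20, with Phgdh, the first enzyme of serine synthesis (-0.98 ± 0.09), and thymidylate synthase, Tyms (-0.81 ± 0.08), among them. That count was 6 on TPM, with relative medians of -0.38 on counts and -0.33 on TPM.

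Cholesterol synthesis lost much of its lineage difference, and genes of the ATF4 stress response shifted upward in Th17n relative to iTreg cells. Beside the interaction counts that follow, 4.81% of all tested genes were called upward and 7.52% downward. Beside the lineage counts, 14.2% of all tested genes were higher and 17.7% lower under DFMO, and 21.3% and 21.5% without it. Of 22 cholesterol genes 7 were lower and 2 higher in Th17n cells under DFMO, and 15 and 0 without it, with medians of -0.06 and -0.46, and the interaction was called upward in 10 and downward in 0. Hmgcs1, which makes the HMG-CoA used by the pathway, had -0.27 ± 0.10 under DFMO and -1.04 ± 0.09 without it. The squalene epoxidase gene Sqle (-0.0034 ± 0.08 and -0.56 ± 0.08) was called only without it. Dhcr7, which catalyses the last step, stayed lower (-1.0 ± 0.10). Between 1 and 2 members were called lower on TPM, 2 without the Th17n DFMO library of animal 4, 3 without the iTreg DFMO library of animal 2, and 4 without either of the other DFMO libraries of animals 2 and 4. Of 24 ATF4 genes 6 were lower and 6 higher under DFMO, and 13 and 4 without it (medians 0.07 and -0.43), and the interaction was called upward in 11 and downward in 0. On TPM values 10 were higher and 2 lower under DFMO. Trib3, a pseudokinase gene induced by ATF4 (1.18 ± 0.16; interaction 1.30 ± 0.21), and Ddit3, the CHOP gene (1.39 ± 0.12; 0.91 ± 0.16), were higher in Th17n cells, and asparagine synthetase, Asns, was called lower only without DFMO (0.06 ± 0.08 with and -0.77 ± 0.08 without). Ribosome biogenesis genes were lower for 13 of 31 and higher for 1 under DFMO, against 22 and 2 without it, but the interaction was called in only 2 upward and 1 downward. The 22 became 14 without the iTreg ctrl library of animal 3. On TPM 1 of the 31 was called lower under DFMO, and the interaction was called upward in 10 to 14.

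**Figure D5:**
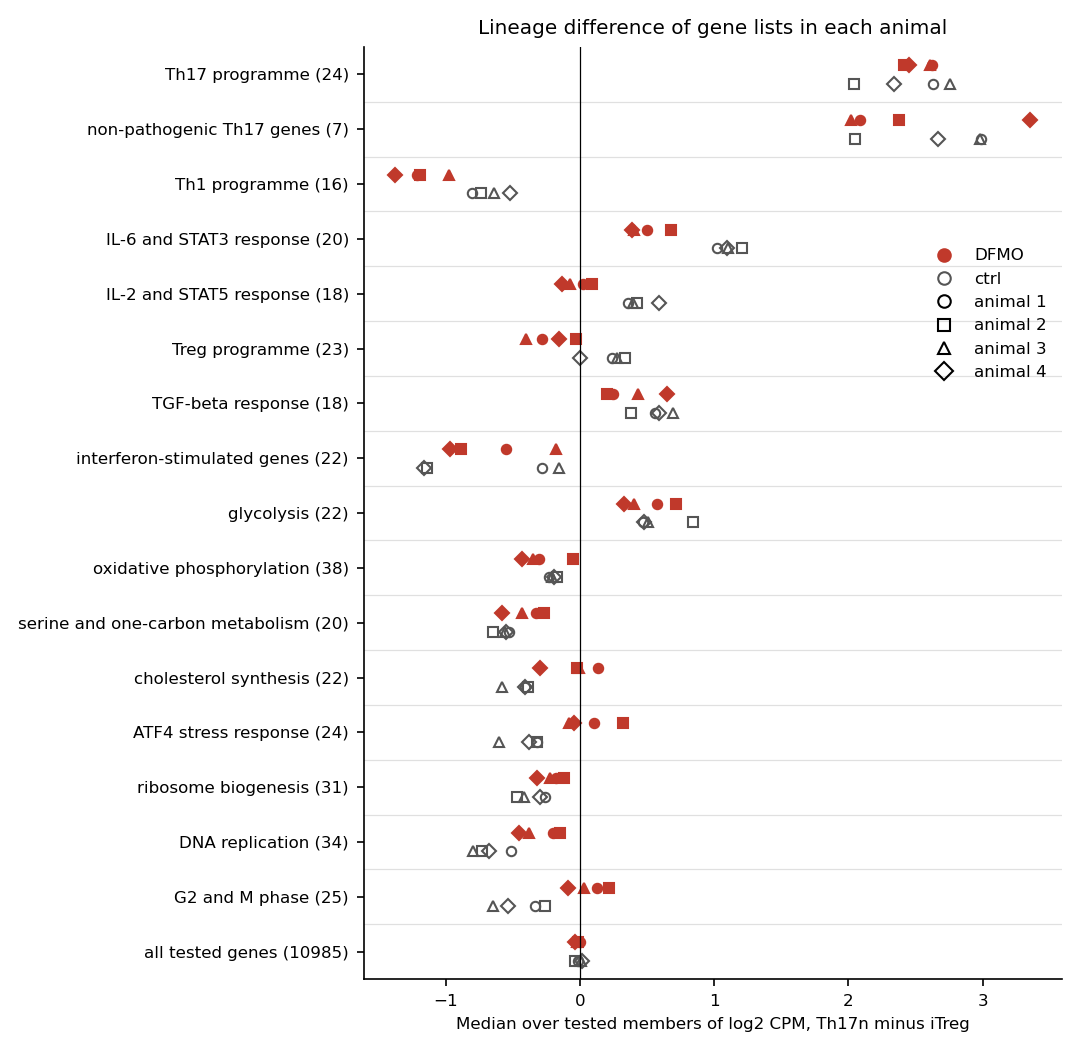
Median over the tested members (numbers in brackets) of the Th17n minus iTreg difference in log2 CPM in each of the 4 animals, under DFMO (red, upper row of each list) and without it (open, lower row). Th17 programme medians lie above 2 in every animal and setting, the IL-6 and STAT3 medians lie lower under DFMO in every animal, and the G2 and M phase medians lie near 0 under DFMO and between -0.65 and -0.27 without it.

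Genes of polyamine metabolism, the pathway that DFMO blocks, differed between the lineages in part. Of 19 tested genes 6 were higher and 6 lower in Th17n cells under DFMO, with a median of 0.0, and 4 and 5 without it. Over all tested genes 14.2% were higher and 17.7% lower under DFMO. The 6 lower calls were not stable: they numbered 1 on TPM values, 2 with only the 8 libraries compared, and 3 without either DFMO library of animal 3, the Th17n DFMO library of animal 2, or animal 1 or 4. Smox, spermine oxidase, had the largest difference, at 109, 116, 92.1 and 126 CPM in Th17n cells, against 9.46, 11.3, 6.62 and 11.8 CPM in iTreg cells (3.50 ± 0.14, edgeR adjusted p = 8.59e-17), with no overlap and a like difference without DFMO (3.31 ± 0.12). Sat1, the acetyltransferase that starts polyamine breakdown, stood at 216, 195, 223 and 204 CPM in Th17n cells, against 122, 130.3, 133 and 138 CPM in iTreg cells, also without overlap (0.68 ± 0.08). Its interaction was small (0.37 ± 0.12, adjusted p = 0.0314) and was lost without any of 5 single libraries or without animal 3 or 4. Odc1, which encodes the target of DFMO, stood at 147, 115, 153 and 201 CPM in Th17n cells, against 115, 119, 120.0 and 97 CPM in iTreg cells, where the groups overlapped. Its difference of 0.43 ± 0.13 (adjusted p = 0.0133) was lost without either DFMO library of animal 4. Srm, spermidine synthase, ran at 377, 317, 441 and 427 CPM in Th17n cells, against 541, 538, 696 and 344 CPM in iTreg cells. It was lower in Th17n cells of animals 1 to 3 but not of animal 4 (-0.44 ± 0.12, adjusted p = 0.00776), and that call was lost on TPM. The untreated libraries held 37.9, 33.6, 44.9 and 51.3 CPM in Th17n cells, against 60.3, 56.5, 74.5 and 63.8 CPM in iTreg cells, so every DFMO library lay above every untreated library in both lineages. Azin1, an antizyme inhibitor gene, differed under DFMO (0.55 ± 0.15) and not without it (-0.17 ± 0.15; interaction 0.71 ± 0.21). Kdm6b, the demethylase gene deleted in the KO animals, did not pass the test in WT cells, at 36, 55, 64 and 62.7 CPM in Th17n cells, against 41.9, 45.4, 59.2 and 49.7 CPM in iTreg cells (0.13 ± 0.13), and the groups overlapped.

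Some lineage differences were far smaller under DFMO than without it. Gipr, an incretin receptor gene, stood at 1.32, 4.40, 1.82 and 3.77 CPM in Th17n cells, against 0.767, 0, 0.602 and 0.695 CPM in iTreg cells, while untreated cells held 51.2, 97.2, 53 and 87 CPM in Th17n cells, against 0.726, 0.198, 0 and 0.697 CPM in iTreg cells (interaction -5.11 ± 1.0, adjusted p = 0.00109). Crispld2 stood at 26.2, 36.6, 29.1 and 27.7 CPM in Th17n cells, against 8.95, 8.02, 13.5 and 12.9 CPM in iTreg cells, a difference of 1.47 ± 0.16 where untreated cells had 5.51 ± 0.17 (adjusted p of the interaction 9.29e-11). Both of its groups were displaced, the Th17n libraries below and the iTreg libraries above their untreated counterparts. Complement C3 (-3.02 ± 0.57) and Tnfrsf8, the CD30 gene (-2.55 ± 0.46), were also reduced. Toward a smaller iTreg excess, the chemokine gene Ccl3 stood at 20.7, 13, 24.2 and 17.2 CPM in Th17n cells, against 134, 85.2, 145 and 125 CPM in iTreg cells. Its untreated values were 1.08, 0.226, 0.638 and 0.216 CPM in Th17n cells, against 31.7, 15.8, 27.1 and 20.2 CPM in iTreg cells (interaction 2.66 ± 0.45). Ccl4 moved alike (2.20 ± 0.28), as did the ubiquitin ligase gene Rnf180 (2.81 ± 0.57). Fscn1, the actin-bundling fascin gene, had a large iTreg excess under DFMO (-3.51 ± 0.31) and a small one without it (-0.66 ± 0.27). The interaction of Fscn1 missed the threshold in all 3 TPM fits, that of Rnf180 in 2 and that of C3 in 1. Pygl, glycogen phosphorylase, had a positive interaction (2.60 ± 0.86, adjusted p = 0.0461) that rests on 2 iTreg counts under DFMO and was lost in 18 of the alternative fits.

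Only 6 genes at least 2-fold apart in untreated cells were called in the opposite direction under DFMO, and they were named after their values were seen. Adm, adrenomedullin, averaged 1.62 CPM in Th17n cells and 11.5 CPM in iTreg cells under DFMO, and 14 and 3.01 CPM without it (-2.78 ± 0.30 and 2.21 ± 0.26). Tspan13 (-0.41 ± 0.09 and 1.06 ± 0.08), Gsdmd, the pore-forming gasdermin D (-0.58 ± 0.22 and 1.13 ± 0.15), Ache (-1.66 ± 0.58 and 1.54 ± 0.47) and Ablim1 (-0.22 ± 0.07 and 1.0 ± 0.07) likewise were lower in Th17n cells under DFMO and higher without it. Vcl, vinculin, did the reverse (0.84 ± 0.25 and -1.0 ± 0.22). All 6 had a called interaction.

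Other lists added smaller movements, where 14.2% of all tested genes were higher and 17.7% lower in Th17n cells under DFMO. Of 15 follicular helper genes 8 were higher and 4 lower in Th17n cells under DFMO, with Bcl6, the regulator of that fate, higher (1.41 ± 0.26) and Icos lower (-0.82 ± 0.09). Satb1, a chromatin organiser of naive T cells, stood at 139, 192, 164 and 171 CPM in Th17n cells, against 31.2, 46, 26.8 and 30.9 CPM in iTreg cells, a difference of 2.31 ± 0.10 that was 3.30 ± 0.10 without DFMO. Tnfsf11, the RANKL gene, was lower (-1.62 ± 0.32), as were Tnfsf8 (-1.65 ± 0.14) and Ltb, lymphotoxin beta (-1.06 ± 0.10, against 0.02 ± 0.10 without DFMO). Gpr15, a homing receptor gene, was higher in Th17n cells by a ratio of 62.8 (95% interval 17.1 to 524), with 2 iTreg counts. Vcam1 was lower under DFMO (-3.18 ± 0.41) and not called without it (-0.49 ± 0.48). Among 10 T cell identity genes, Cd4 (-0.90 ± 0.08) and 4 CD3 complex genes (Cd3d, Cd3e, Cd3g and Cd247) were lower under DFMO, while Cd5 (0.95 ± 0.08), Zap70 (0.30 ± 0.11) and Lat (0.25 ± 0.09) were higher in Th17n cells. Without DFMO 4 of the 10 were higher and 1 lower. The interaction was called downward in 6 and upward in 0, against 7.52% and 4.81% of all tested genes. Of 18 JmjC demethylase genes 7 were higher and 1 lower, led by Kdm5b (0.90 ± 0.11). The 7 became 4 without the iTreg DFMO library of animal 4 and 4 to 5 on TPM, and the lower call was absent on TPM and by DESeq2. Heat shock genes gave 2 higher and 6 lower of 12, against 3 and 0 on TPM, and the 6 became 2 without either DFMO library of animal 3 and 3 without the Th17n DFMO library of animal 4.

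Whether the lineage difference under DFMO depended on Jmjd3 was tested as the difference in KO animals minus that in WT animals. Kdm6b itself stood in KO libraries 1 to 3 at 24.3, 26.7 and 33 CPM in Th17n cells, against 26.1, 19.9 and 27.7 CPM in iTreg cells, and in WT libraries at the values given above. Counts per gene do not show which exons were lost, and the labels do not give the deleted part. The difference between genotypes was called for 46 of 10985 genes (0.419%), 25 positive (0.228%) and 21 negative (0.191%), where 890 had an unadjusted p under 0.05. No called gene belonged to the glycolysis, oxidative phosphorylation, DNA replication, or G2 and M phase lists, which at 0.419% of all genes says little about them. Positive calls fell on 4 of 16 Th1 genes, 3 of 20 IL-6 and STAT3 genes, 3 of 30 cytokine receptor genes, 2 of 24 Th17 genes and 2 of 22 interferon-stimulated genes. Negative calls fell on 2 of 23 Treg genes. These lists share members. Ly6a stood in KO libraries 1 to 3 at 541, 432 and 603 CPM in Th17n cells, against 1.78, 0.677 and 2.46 CPM in iTreg cells, and in WT libraries at 369, 302, 452 and 278 CPM in Th17n cells, against 191, 24.6, 229 and 31.3 CPM in iTreg cells (6.52 ± 0.71, adjusted p = 1.31e-05). The iTreg libraries carried most of that difference, and Ly6a has close paralogs, so its share of reads is uncertain. Tbx21 stood at 12.4, 6.93 and 6.95 CPM in Th17n cells, against 5.05, 5.19 and 4.0 CPM in iTreg cells in KO libraries, so that the iTreg excess of WT cells was not seen there (2.99 ± 0.62, adjusted p = 0.0192). Gbp2, an interferon-induced GTPase gene, stood at 166, 138 and 150.5 CPM in Th17n cells, against 68.3, 19.4 and 68.8 CPM in iTreg cells in KO libraries and at 90.9, 63.9, 108 and 55.2 CPM in Th17n cells, against 157, 199.8, 126 and 238 CPM in iTreg cells in WT libraries (2.80 ± 0.38). In the negative direction, Smox had a smaller Th17n excess in KO cells, at 88, 114 and 88.8 CPM in Th17n cells, against 22.6, 24.8 and 22.1 CPM in iTreg cells (-1.43 ± 0.21, adjusted p = 0.000769). Sytl1 (-1.35 ± 0.20), Gpr83 (-1.20 ± 0.18) and the class II gene H2-Ab1 (-1.54 ± 0.28) also had negative values. The call of Ccl20 (2.61 ± 0.58) was lost in 17 alternative fits, that of Tbx21 in 6, and that of Smox on TPM.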

How the data were processed

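RNA of 28 mouse CD4 T cell cultures was measured by full-length RNA-seq with paired reads of 75 bp. The authors deposited estimated counts per gene and TPM for 20891 genes, made with kallisto on GRCm38 according to the submitters' processing notes. Its version, annotation and strand setting are not given in the sources used here, and reads of overlapping or antisense genes may therefore be mixed. Of the deposited estimated counts 67.2% were whole within 0.001, and the deposited TPM summed to 863920 to 886579 per library. Gene positions come from GENCODE M21 (GRCm38), which matched 20837 names.

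Estimated counts were rounded and tested with edgeR 4.0.16 (quasi-likelihood F test, TMM scaling, filterByExpr, R 4.3.3) in 1 fit of all 28 libraries with the animal as a block, and p-values were adjusted by Benjamini-Hochberg over 10985 genes. All 28 libraries share 1 estimate of the spread (15 residual degrees of freedom). Library totals ran from 2226914 to 4759290 estimated counts. A call is an adjusted p under 0.05. The labels give the animal of each library, so the block follows the design; the deviations of same-numbered Th17n and iTreg libraries under DFMO correlated at only 0.111, -0.032, 0.04 and 0.045. Folds against 1 to 3 counts are given as ratios with exact 95% Clopper-Pearson intervals, and against 0 counts as bounds from a floor of 3 counts over the group. Both cover counting error only. The test was checked on simulated counts with known changes. Of 1.5-fold changes it recovered 52.2% for lineage under DFMO, 28.4% for the interaction and 26.9% for KO minus WT. Of 2-fold changes it recovered 77.6%, 68.7% and 59.7%. False calls numbered 6, 10 and 6. A gene that was not called may therefore still differ. Alternatives were no block, fewer libraries, DESeq2 1.42.0 or its size factors, no filter, limma 3.58.1 on log2(TPM + 1) or log2(TPM + 0.1), and leaving out libraries or animals.

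The genes named are the 10 largest called differences each way under DFMO (mean of at least 10 CPM, same direction in all 4 animals), the 6 largest interactions and the 4 largest KO minus WT values each way, 10 genes always given, and from each list up to 4 called members of smallest adjusted p and up to 2 with a called interaction. Other list members named, among them Ccr6, Runx1, Nfkbiz, Smad7, Pmepa1, Asns, Ikzf4, Penk and Mki67, and the 6 genes of opposite direction, were chosen after their values were seen. Some genes that the rule covers are not reported here. The comparison and the gene lists were chosen with earlier results of these data known. Cell type markers were summed as CPM.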

Additional observations from a re-analysis of the deposited data

Results flagged for a closer look

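In 2 of 76 gene and group pairs a library stood apart from the other 3 by Dixon's test, which flags about 1 in 20 groups by chance. Both were the Th17n DFMO library of animal 2, with Rnf180 at 3.08 CPM and Nrp1 at 50.4 CPM.

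Differences between lineages that changed with DFMO by the interaction test (edgeR, 4 animals) were of both signs, with adjusted p-values in brackets. Foxp3 had 2.20 (edgeR adjusted p = 2.04e-06), Nrp1 2.22 (2.53e-05), Tgm2 2.32 (1.9e-06), Rnf180 2.81 (0.00157), Ccl3 2.66 (0.000209), Ccl4 2.20 (7.1e-06), Pygl 2.60 (0.0461) and Sat1 0.37 (0.0314) on the log2 scale. The negative values were -5.11 for Gipr (edgeR adjusted p = 0.00109), -4.04 for Crispld2 (9.29e-11), -3.02 for C3 (0.000766), -2.86 for Fscn1 (4.23e-05), -2.59 for Spib (0.0166) and -2.55 for Tnfrsf8 (0.000518).

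Between genotypes, the difference under DFMO in KO minus that in WT animals was 6.52 for Ly6a (edgeR adjusted p = 1.31e-05), 2.99 for Tbx21 (0.0192), 2.80 for Gbp2 (0.00044) and 2.61 for Ccl20 (0.0368). It was -1.54 for H2-Ab1 (edgeR adjusted p = 0.00598), -1.43 for Smox, -1.35 for Sytl1 and -1.20 for Gpr83 (0.000769 for each of these 3).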

How the results depend on the processing

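The deposited TPM gave another balance of directions than the counts. With pseudocount 1, pseudocount 0.1 and no filter, genes lower under DFMO numbered 756, 771 and 709 (1946 on counts), positive interactions 1011, 937 and 812 (528) and negative ones 285, 198 and 237 (826). Of the calls under DFMO 44.5% were higher in Th17n cells on counts, 74.2%, 74.4% and 73.0% in the TPM fits, and 56.1% without the filter on low counts (1874 and 1465). For the interaction these shares were 39.0% on counts, 78.0%, 82.6% and 77.4% on TPM and 49.9% without the count filter (683 and 685). The median of all genes under DFMO lay at -0.02 on counts and at 0.15, 0.18 and 0.04 on TPM. Pygl reversed, with an interaction of -0.56 on TPM with pseudocount 1 and without a filter. Untreated Th17n-low genes called again numbered 227 on TPM without a filter (347). With only the 8 libraries compared, 1172 genes were higher and 1143 lower. Without the replicate block 1442 and 1796 were, with 372 positive and 587 negative interactions. For KO minus WT the positive calls were 38 by DESeq2, 14, 16 and 14 on TPM, 85 without the filter and 10 without the block (25), and the negative ones 81 without the filter and 11 without the block (21). The cause of these shifts was not tested.

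Leaving out 1 library or animal gave 1236 to 1760 higher and 1300 to 1959 lower genes under DFMO, 1943 to 2527 and 1895 to 2668 without it, 255 (without animal 3) to 750 positive and 394 (without animal 1) to 733 negative interactions, and 10 to 31 and 8 to 30 KO minus WT calls. In these fits 42.4% to 53.6% of the calls under DFMO were higher in Th17n cells, and 35.6% to 54.7% of the called interactions were positive. Untreated differences called again ranged over 523 to 599 higher and 306 to 367 lower genes. Of 139 genes followed under DFMO 11 lost their call in some such fit and 20 in some other alternative, and of 74 followed interactions 18 and 28 did. With 4 animals a group and 1 culture per animal, the median SE of 0.156 under DFMO limits how small a difference can be called.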
